A study of Drosophila melanogaster with 12 samples.

Results

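The genes described here encode histone deacetylases and acetyltransferases other than Rpd3, the deacetylase of the SIN3 complex: the deacetylase genes Hdac3, HDAC4, HDAC6, HDACX, Sir2 and Sirt2, and the acetyltransferase genes nej, Pcaf, Tip60 and chm. They were chosen by symbol, and all 10 were found among the 14542 gene rows of the SIN3 table and the 14540 rows of each other table. Of these symbols, 9 were spelled as listed; HDACX was found as HdacX, which RefSeq gives as a synonym of the same gene. Each of the 10 genes had been tested by the authors in every table, so none was lost to a filter on low values.

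The samples were Drosophila S2 cells, a cultured embryonic line with features of macrophage-like blood cells, exposed for 4 days to double-stranded RNA (dsRNA). The dsRNA was directed against GFP in the control, against Sin3A, against Sam-S, or against both genes, and the genotype of all cells was wild type per the labels. Each of the 4 groups had 3 samples, biological replicates by the submitters' design text, which the authors pooled into 1 FPKM per gene and group (a level per length of transcript and per depth of sequencing, so that genes of unlike length can be compared). The values of single samples, and so an SD, cannot be given. Sam-S encodes S-adenosylmethionine synthetase and Sin3A the scaffold of a histone deacetylase complex built around Rpd3.

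Acetyltransferases add acetyl groups from acetyl-CoA to lysines of histones and other proteins, which loosens contacts with DNA and creates binding sites for bromodomain proteins. Deacetylases remove them: the classical enzymes use a zinc ion, and the sirtuins consume NAD. Several of these enzymes, such as Pcaf and Tip60, work as subunits of larger complexes, while HDAC6 is best known for acting on tubulin in the cytoplasm.

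Below, the SIN3, SAM-S and double tables are the authors' comparisons of the samples labelled SIN3 knockdown, SAM-S knockdown and double knockdown with GFP. Sam-S stood at 62.0 FPKM after SAM-S knockdown and 91.2 FPKM in the samples labelled double knockdown, against 242 and 243 FPKM in the control; with Sin3A dsRNA alone it stood at 484 against 240 FPKM. Sin3A mRNA stood at 61.7 against 67.9 FPKM in the samples labelled SIN3 knockdown and at 64.7 against 68.5 FPKM in those labelled double knockdown, and it was called lower in neither (q of 0.931 and 0.930 in the authors' deposited tables). The names of these groups are therefore those of the labels. All 10 hemocyte markers had a row and 9 were above 1 FPKM in the control; Hml, a defining marker, was at 0.779 FPKM. Beside 4.35%, 0.0754% and 6.14% of all tested rows, 4, 0 and 4 of these markers were called lower for SIN3, SAM-S and the double table. Nplp2 held most of their summed level and stood at 10668 against 24886 FPKM for SIN3, 21859 against 25039 FPKM for SAM-S and 10156 against 25185 FPKM for the double table. The other 9 together stood at 805 against 1003 FPKM, 1207 against 1008 FPKM and 1025 against 1014 FPKM, with 1, 5 and 3 of them above the control, so their sum was lower only for SIN3. The part of these markers in the values below was not tested. Below 1 FPKM in the control, but not at 0, were 3 of 5 neuron, 4 of 5 muscle and 3 of 5 germline markers. The rest were above it: elav at 3.22 and fne at 1.62 (neuron), Tm1 at 372 (muscle), piwi at 46.4 and aub at 36.9 FPKM (germline).

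None of the 10 genes changed past the authors' threshold in any comparison. A gene was called when its q in the authors' deposited table, from Cuffdiff, was under 0.05. Of all tested rows, 7.68% passed it for SIN3 (3.34% higher, 4.35% lower), 0.163% for SAM-S (0.088% higher, 0.0754% lower) and 9.62% for the double table (3.48% higher, 6.14% lower). Of the 10 genes, 0 passed it in each. At an unadjusted p under 0.05, Cuffdiff gave 0, 0 and 1 of the 10, where the shares of all tested rows were 18%, 2.8% and 20.5%. The single gene was Sir2 in the samples labelled double knockdown. Because these are bulk samples, fewer cells expressing a gene and less RNA per cell cannot be told apart.

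The levels spanned about an order of magnitude. In the GFP control, as given in the SIN3 table, Sirt2 was highest at 63.0 FPKM, followed by HDAC4 at 59.0, Sir2 at 47.6 and Hdac3 at 36.3 FPKM. The acetyltransferase genes lay lower: Pcaf stood at 27.5 FPKM, Tip60 at 21.8, nej at 15.7 and chm at 14.6 FPKM, with HdacX between the last 2 at 15.3 FPKM. HDAC6 was lowest at 6.13 FPKM, above 20.4% of all tested rows, whereas Sirt2 was above 78.0% of them. Of the 9 neighbouring pairs in this order, 6 kept it in all 4 groups; the exceptions were Sirt2 and HDAC4, Sir2 and Hdac3, and nej and HdacX. Whether neighbours differ beyond their spread cannot be said from pooled values. The tables were normalised separately, and their GFP values differ slightly (median ratio 1.005 for the SAM-S and 1.011 for the double table, each over the SIN3 table). Each log2 fold change below is therefore computed within 1 table.

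**Figure D1:**
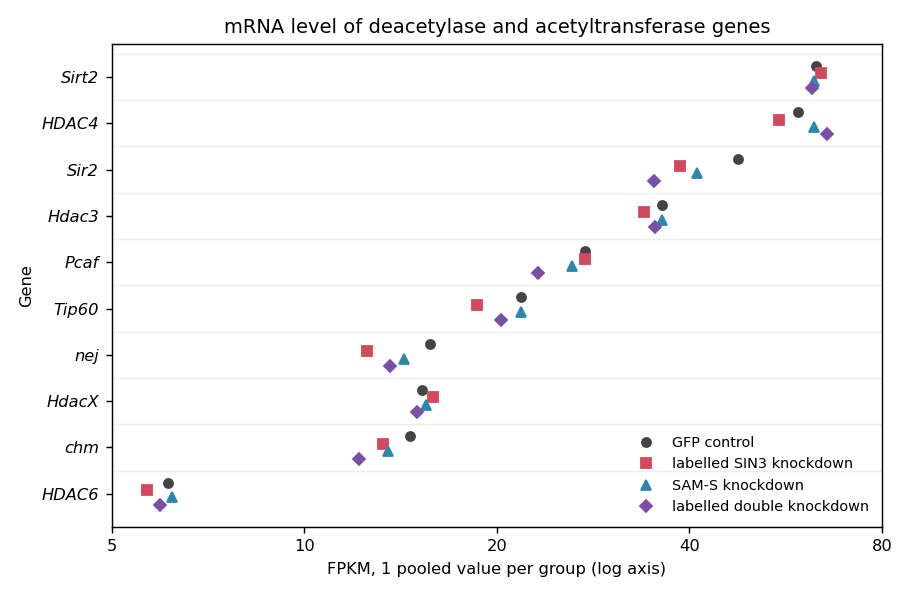
FPKM of each gene (log axis) in the GFP control and the samples of each knockdown label, 1 pooled value per group with no error bar; the control is that of the SIN3 table. Sirt2, at 62.1 to 64.1 FPKM, hardly moves between groups, while the 3 knockdown points of Sir2 lie left of its control point at 47.6 FPKM.

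Among the classical deacetylases, every value lay close to the control. Hdac3 (chromosome 3R, 1298532 to 1300320, build dm3, as are all positions given here) encodes a class I enzyme that works with the co-repressor Smr. It stood at 33.9 FPKM in the samples labelled SIN3 knockdown against 36.3 in the control, at 36.2 against 36.4 after SAM-S knockdown, and at 35.4 against 36.6 in the samples labelled double knockdown. The control was the higher value each time, by a log2 fold change of -0.10, -0.01 and -0.05. An approximate standard error can be drawn from the deposited statistic; for Hdac3 it was 0.20 in the SIN3 table, which gives a 95% interval from -0.49 to 0.30. The q of Hdac3 in the authors' deposited tables was 0.969, 0.9999 and 0.953.

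HDAC4 (chromosome X, 13156720 to 13179354) encodes a class IIa enzyme known as a partner of MEF2 transcription factors. Its level was 55.2 against 59.0 FPKM in the samples labelled SIN3 knockdown, 62.7 against 59.2 after SAM-S knockdown and 65.6 against 59.6 in the samples labelled double knockdown. It was thus below the control in the first group and above it in the others, with log2 fold changes of -0.10, 0.08 and 0.14. Of the 10 genes it had the highest log2 fold change in the SAM-S and double tables, and its q in the authors' deposited double table was 0.777. The interval in the double table ran from -0.21 to 0.49.

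HDAC6 (chromosome X, 15227343 to 15234393) stood at 5.67 against 6.13 FPKM, 6.21 against 6.16 FPKM and 5.95 against 6.19 FPKM for SIN3, SAM-S and double. Its log2 fold changes were -0.11, 0.01 and -0.06, each with an approximate standard error of 0.23 to 0.25. HdacX (chromosome 3R, 20677323 to 20681965), which encodes the single class IV enzyme and is named HDAC11 in current annotation, stood at 15.9 against 15.3 FPKM, 15.5 against 15.4 FPKM and 15.0 against 15.4 FPKM. The log2 fold changes of HdacX were 0.06, 0.01 and -0.04, and the value farthest from 0 of either gene was the -0.11 of HDAC6. For HdacX the standard error was 0.63 to 0.67, and its interval in the SIN3 table, from -1.26 to 1.37, includes changes of more than 2-fold in either direction.

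Of the sirtuin genes, Sir2 lay below the control throughout and Sirt2 close to it, and neither was called. Sir2 (chromosome 2L, 13163209 to 13169551), the fly counterpart of mammalian SIRT1 and named for its part in gene silencing in yeast, stood at 38.6 against 47.6 FPKM in the samples labelled SIN3 knockdown. It stood at 41.1 against 47.8 FPKM after SAM-S knockdown and at 35.2 against 48.1 FPKM in the samples labelled double knockdown. All knockdown values were below their control, and the samples labelled double knockdown had the lowest. The log2 fold changes were -0.30 ± 0.21, -0.22 ± 0.20 and -0.45 ± 0.21 (approximate standard error). In the authors' deposited tables its p was 0.143, 0.282 and 0.0336 and its q 0.546, 0.9999 and 0.188, so it was not called. In the double table the interval ran from -0.86 to -0.04, the only one of the 30 intervals of these genes that did not hold 0. A value as low or lower was held by 17.9% of all tested rows there, by 22.2% for SIN3 and by 13.9% for SAM-S.

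Sirt2 (chromosome 3R, 16154192 to 16155751) has a mammalian counterpart that deacetylates tubulin and histones. Of the genes described it had the smallest ratio of highest to lowest level over the 4 groups, 1.03, where Sir2 had 1.35. This ratio mixes levels of different tables, with the control of the SIN3 table, and is not corrected for their separate normalisation. Within each table, Sirt2 stood at 64.1 against 63.0 FPKM, 62.6 against 63.3 FPKM and 62.1 against 63.6 FPKM for SIN3, SAM-S and double. The log2 fold changes of 0.03, -0.01 and -0.04 were all smaller than their standard error of 0.18 to 0.19. The intervals of Sirt2 together ran from -0.40 to 0.39.

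The acetyltransferase genes stood below the control in all values but 1, several by less than their approximate standard error, and none was called. The gene nej (chromosome X, 9559475 to 9581099) encodes the fly CREB-binding protein, a co-activator that acetylates histone H3 at enhancers. Its level was 12.5 against 15.7 FPKM in the samples labelled SIN3 knockdown, 14.3 against 15.8 FPKM after SAM-S knockdown and 13.6 against 15.9 FPKM in the samples labelled double knockdown. The lowest level was that of the samples labelled SIN3 knockdown, with a log2 fold change of -0.33 and an interval from -0.67 to 0.01. Its p was 0.0526 and its q 0.307 in the authors' deposited SIN3 table, and 20.6% of all tested rows there were as low as nej or lower. The other log2 fold changes of nej were -0.14 and -0.22, with q of 0.9999 and 0.532 in the authors' deposited tables.

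The gene chm (chromosome 2L, 7412417 to 7422736) encodes Chameau, an acetyltransferase of the MYST family. It stood at 13.3 against 14.6 FPKM, 13.5 against 14.7 FPKM and 12.2 against 14.8 FPKM for SIN3, SAM-S and double. The knockdown was lower each time, by -0.14, -0.12 and -0.28 on the log2 scale with standard errors of 0.19 to 0.21, and none was called (the authors' deposited double table gives q = 0.501).

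Pcaf (chromosome 3L, 12514229 to 12519837), now named Gcn5, encodes the histone H3 acetyltransferase of the SAGA and ATAC complexes. It stood at 27.5 FPKM both in the samples labelled SIN3 knockdown and in their control, at 26.2 against 27.6 FPKM after SAM-S knockdown and at 23.2 against 27.7 FPKM in the samples labelled double knockdown. The log2 fold change was -0.08 after SAM-S knockdown and -0.26 in the samples labelled double knockdown, the latter with a standard error of 0.49. Tip60 (chromosome X, 4005189 to 4022980), the MYST-family enzyme of a complex that acetylates histones H4 and H2Av, stood at 18.6 against 21.8 FPKM, 21.8 against 21.9 FPKM and 20.3 against 22.0 FPKM. Its log2 fold changes were -0.23, -0.01 and -0.12 with standard errors of 0.51 to 0.52. The q of both genes in the authors' deposited tables was at least 0.88.

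**Figure D2:**
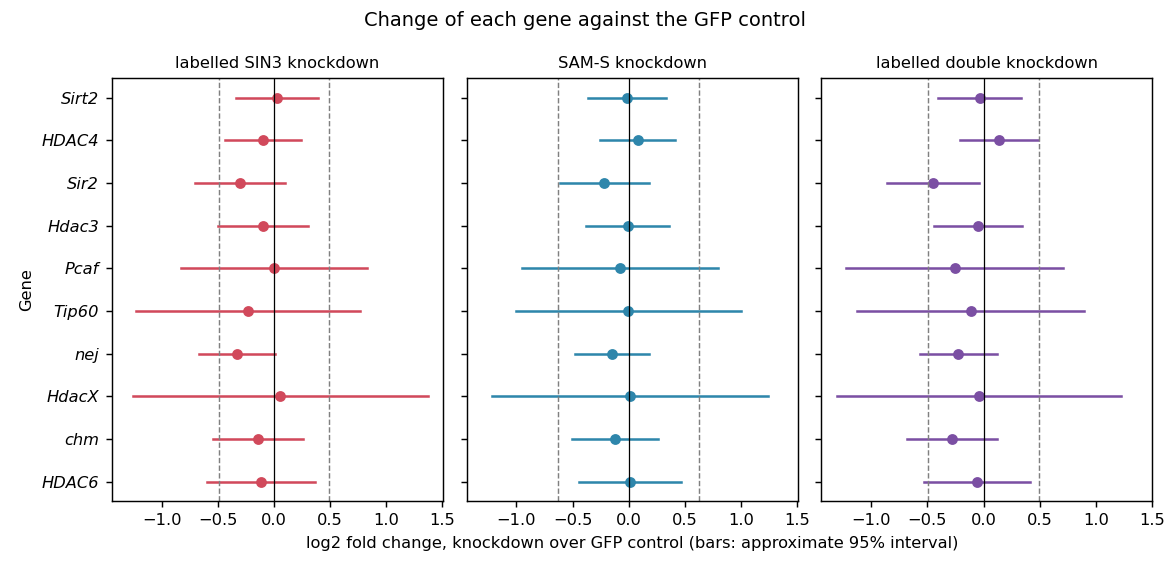
Log2 fold change of each gene against the GFP control in the 3 comparisons; bars are approximate 95% intervals from the deposited statistic, and dashed lines mark the smallest absolute log2 fold change among rows the authors called (0.49, 0.63 and 0.50). All points lie between the dashed lines, and the bars of HdacX, Tip60 and Pcaf are the longest.

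The median log2 fold changes of the 4 classical deacetylase, 2 sirtuin and 4 acetyltransferase genes were -0.10, -0.14 and -0.19 for SIN3. They were 0.01, -0.12 and -0.10 for SAM-S, and -0.05, -0.24 and -0.24 for the double table. The median log2 fold change of the 10 genes was -0.10, -0.01 and -0.09 over the SIN3, SAM-S and double comparisons, beside -0.01, -0.02 and -0.01 over all tested rows. The median absolute log2 fold change was 0.10, 0.05 and 0.13, beside 0.23, 0.12 and 0.27 over all tested rows. Of the 10 genes, 7, 7 and 9 had a negative value, where 51.7%, 54.8% and 51.6% of all tested rows were negative. Sir2, nej, chm, Hdac3 and Tip60 were below the control in every table, none was above it in every table, and the other 5 had values on both sides. After SAM-S knockdown the negative values of Hdac3, Sirt2 and Tip60 became positive when the table was centred on its median. These comparisons share their control samples, so values on 1 side in every table are not independent.

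The precision differed between the genes and bounds what could have been seen. For 7 of the 10 genes every interval lay inside a 2-fold change in either direction; for HdacX, Pcaf and Tip60 at least 1 interval reached past it. In the deposited tables these 3 rows, and Sir2, carry the same locus as rows of other genes, so the positions given for these 4 are those of the whole locus. The HdacX row shares its locus with nct, the Sir2 row with DnaJ-H, the Pcaf row with eIF-2beta and ver, and the Tip60 row with dgt4, Nsun2 and tyf. In the current annotation HdacX overlaps nct, Sir2 overlaps DnaJ-H, Pcaf overlaps ver, and Tip60 overlaps dgt4 and tyf, each on the opposite strand. Whether counting used strand is not given in the sources used here, so reads of overlapping genes may not be separable and these 4 values are uncertain. The other 6 genes have a locus of their own.

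The neighbouring rows had the following values. DnaJ-H, a co-chaperone gene, stood at 31.6 against 40.9 FPKM, 35.2 against 41.0 FPKM and 29.4 against 41.2 FPKM for SIN3, SAM-S and double, or -0.37, -0.22 and -0.49 on the log2 scale. Like Sir2, it was below the control each time and lowest in the samples labelled double knockdown, and it was not called (the authors' deposited double table gives q = 0.517). The part of DnaJ-H reads in the Sir2 value was not tested. The row of nct, which encodes nicastrin, stood at 110 against 105 FPKM for SIN3, 97.8 against 106 FPKM for SAM-S and 102 against 106 FPKM for the double table, and so on both sides of its control, as HdacX did. Of the Pcaf neighbours, eIF-2beta, which encodes a translation initiation factor subunit, stood at 306 against 280 FPKM, 345 against 281 FPKM and 390 against 283 FPKM. It was above its control each time, with p = 0.0155 and q = 0.112 for the double table in the authors' deposited table, and not called. The row of ver stood at 8.93 against 14.3 FPKM, 16.2 against 14.4 FPKM and 10.4 against 14.5 FPKM, with standard errors of 1.18 to 1.45.

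Of the Tip60 neighbours, dgt4 stood at 12.4 against 21.6 FPKM, 21.6 against 21.7 FPKM and 12.1 against 21.8 FPKM for SIN3, SAM-S and double, with standard errors of 0.81 to 1.00. The row of tyf stood at 22.8 against 31.4 FPKM, 30.1 against 31.6 FPKM and 22.8 against 31.7 FPKM, and the authors' deposited tables give q of 0.246, 0.9999 and 0.214. Nsun2, on the same strand and not overlapping, stood at 20.1 against 24.2 FPKM, 27.7 against 24.3 FPKM and 23.0 against 24.5 FPKM. Both overlapping rows were below their control in every table, as Tip60 was, and none of the 3 neighbours was called. After SAM-S knockdown the log2 fold changes of dgt4 and Tip60 were only -0.006 and -0.005. The part of the overlapping rows' reads in the Tip60 value was not tested.

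Among the tested rows of a single symbol in the SIN3 table, the median standard error was 0.31 for 3458 rows that share a locus and 0.21 for 4328 rows with their own. The 4 such rows among the genes described ran from 0.21 to 0.67, and the other 6 from 0.17 to 0.25. The same order held for SAM-S (0.29 and 0.19) and for the double table (0.31 and 0.20). Rows that share a locus also had a lower median level in the control, 21.2 against 26.3 FPKM in the SIN3 table.

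**Figure D3:**
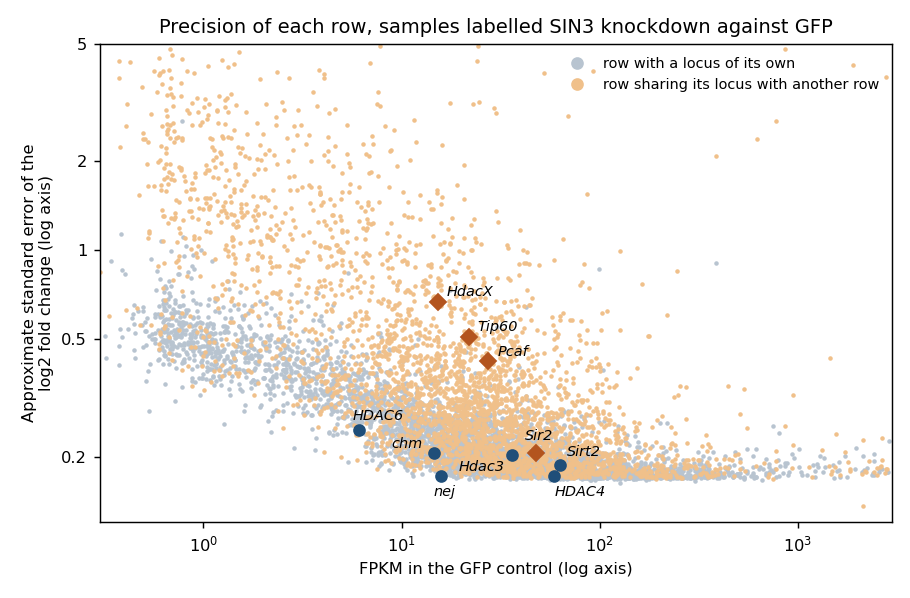
Approximate standard error of the log2 fold change against FPKM in the GFP control (log axes) for 7786 tested rows of a single symbol in the SIN3 table, 114 of which fall outside the axes; diamonds mark the 4 described genes whose row shares its locus, large circles the other 6. HdacX, Tip60 and Pcaf lie above all 6 of those circles, and Sir2 lies among them. The quartiles of all rows that share a locus were 0.21 and 0.58. Pcaf (0.42) and Tip60 (0.51) lie between these quartiles and HdacX (0.67) lies above them.

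The knockdowns were also set against each other, by the difference of their log2 fold changes. Compared were the double and the SIN3 table, the double and the SAM-S table, and the SIN3 and the SAM-S table, in this order. None of the 10 genes was called different in any, by an approximate test adjusted over all rows tested in both. The test counts the shared control in both tables, so its standard errors are too large, its intervals too wide and its p-values too high. That test called 0.2%, 1.03% and 2.07% of all rows in these comparisons, and 0 of the 10 genes in each. At an unadjusted p under 0.05 it gave 0 of the 10 genes in each, beside 1.99%, 7.43% and 10.3% of all rows. HDAC4 had the lowest p between the double and the SIN3 table, with a difference of 0.23 and an interval from -0.25 to 0.72. Sir2 was lower in the double than in the SAM-S table by a difference of -0.23, with an interval from -0.80 to 0.34, and -0.15 (interval -0.73 to 0.43) from the SIN3 table. For nej, the SIN3 table stood -0.18 from the SAM-S table, with an interval from -0.66 to 0.29. The p-values and intervals do not show that the knockdowns act alike on these genes: differences of more than 2-fold remain inside the intervals of HdacX, Pcaf and Tip60.

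Other deacetylase and acetyltransferase genes were described from lists. Of the 4 other deacetylase genes, Rpd3, Sirt4, Sirt6 and Sirt7, none was called in any table. The shares of all tested rows called were 7.68%, 0.163% and 9.62% for SIN3, SAM-S and double. At an unadjusted p under 0.05, Cuffdiff gave 1, 0 and 1 of the 4, beside 18%, 2.8% and 20.5% of all tested rows. Rpd3, the catalytic subunit of the SIN3 complex, stood at 72.9 against 102 FPKM in the samples labelled SIN3 knockdown and 74.7 against 103 FPKM in the samples labelled double knockdown, with q of 0.0653 and 0.0681 in the authors' deposited tables; after SAM-S knockdown it stood at 104 against 103 FPKM. Among 12 other acetyltransferase genes, 11 were tested, and calls were made only in the double table, where 1 rose and 1 fell. At an unadjusted p under 0.05, Cuffdiff gave 0, 1 and 4 of the 11, beside 18%, 2.8% and 20.5% of all tested rows. In the double table, 3.48% and 6.14% of all tested rows were called higher and lower. CG2051, which encodes the histone acetyltransferase Hat1 that acts on newly made histone H4, fell from 91.6 to 62.6 FPKM (log2 fold change -0.55; the authors' deposited table gives q = 0.0302). It stood at 78.9 against 90.6 FPKM in the SIN3 table and 70.5 against 91.1 FPKM in the SAM-S table, both not called. The merged row of CG42455 and vnc, the latter encoding an N-terminal acetyltransferase subunit, rose from 72.7 to 108 FPKM (0.57; the authors' deposited table gives q = 0.0321). The gene mof, whose product acetylates histone H4 on the male X, stood at 9.48 against 13.4 FPKM in the double table and was not called (the authors' deposited table gives q = 0.136).

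The partners of Pcaf and Tip60 gave 1 call. Of 25 SAGA and ATAC subunit genes, all tested, none was called in any table, beside 7.68%, 0.163% and 9.62% of all tested rows. Their medians were 0.09, -0.03 and 0.12 on the log2 scale for SIN3, SAM-S and double. At an unadjusted p under 0.05, Cuffdiff gave 2, 0 and 1 of the 25, beside 18%, 2.8% and 20.5% of all tested rows. Of 15 Tip60 complex genes 14 were tested, and dom alone was called, in the SIN3 table; Cuffdiff gave 3, 0 and 1 of the 14 an unadjusted p under 0.05. The dom gene, which encodes the ATPase of that complex, fell from 60.8 to 41.7 FPKM (log2 fold change -0.54; the authors' deposited table gives q = 0.0258). There, 4.35% of all tested rows were called lower. In the other tables its row is merged with small RNA genes, and neither value was called: it stood at 64.7 against 61.0 FPKM after SAM-S knockdown and 46.7 against 61.4 FPKM (-0.39) in the samples labelled double knockdown. Tip60 itself had -0.23 in the SIN3 table with an interval from -1.23 to 0.77.

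Among 17 deacetylase partners and co-repressors, CoRest fell in the SIN3 and double tables and no other gene was called. CoRest encodes a co-repressor that joins Rpd3 to a lysine demethylase. It fell from 41.6 to 27.9 FPKM in the SIN3 table (-0.58, the authors' deposited table gives q = 0.0464) and from 42.1 to 24.8 FPKM in the double table (-0.76, the authors' deposited table gives q = 0.00283), and stood at 38.8 against 41.8 FPKM after SAM-S knockdown. The call in the SIN3 table lies close to the threshold. Of all tested rows, 4.35% and 6.14% were called lower in the SIN3 and double tables. At an unadjusted p under 0.05, Cuffdiff gave 2, 0 and 5 of the 17, beside 18%, 2.8% and 20.5% of all tested rows. Smr, the partner of Hdac3, stood at 81.0 against 126 FPKM for SIN3 and, in a row merged with CR43963, at 148 against 127 FPKM for SAM-S and 111 against 128 FPKM for the double table. Its standard errors were 0.54 to 0.59, and it was not called. Of 9 acetyl-lysine reader genes none was called, beside 7.68%, 0.163% and 9.62% of all tested rows for SIN3, SAM-S and double. Their medians were -0.13, -0.09 and -0.24, and Cuffdiff gave 1, 0 and 1 of the 9 an unadjusted p under 0.05.

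In the list of 7 genes for acetyl-CoA and NAD supply, 1 rose and 1 fell in both the SIN3 and the double table. Of all tested rows, 3.34% and 3.48% were called higher there, and 4.35% and 6.14% lower. Nmnat, whose product makes NAD, the co-substrate of the sirtuins, rose from 12.2 to 22.7 FPKM in the SIN3 table (0.89 ± 0.26, the authors' deposited table gives q = 0.0226). In the double table it rose from 12.4 to 24.6 FPKM (0.99 ± 0.25, the authors' deposited table gives q = 0.00605), and after SAM-S knockdown it stood at 12.5 against 12.3 FPKM. Parp, which consumes NAD to make poly(ADP-ribose), fell from 9.50 to 5.64 FPKM (-0.75, the authors' deposited table gives q = 0.0449) and from 9.65 to 5.43 FPKM (-0.83, the authors' deposited table gives q = 0.0221) in the same tables. It stood at 9.86 against 9.60 FPKM after SAM-S knockdown. None of the 7 was called in the SAM-S table, where 0.163% of all tested rows were. At an unadjusted p under 0.05, Cuffdiff gave 4, 0 and 3 of the 7, where the shares of all tested rows were 18%, 2.8% and 20.5%.

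**Figure D4:**
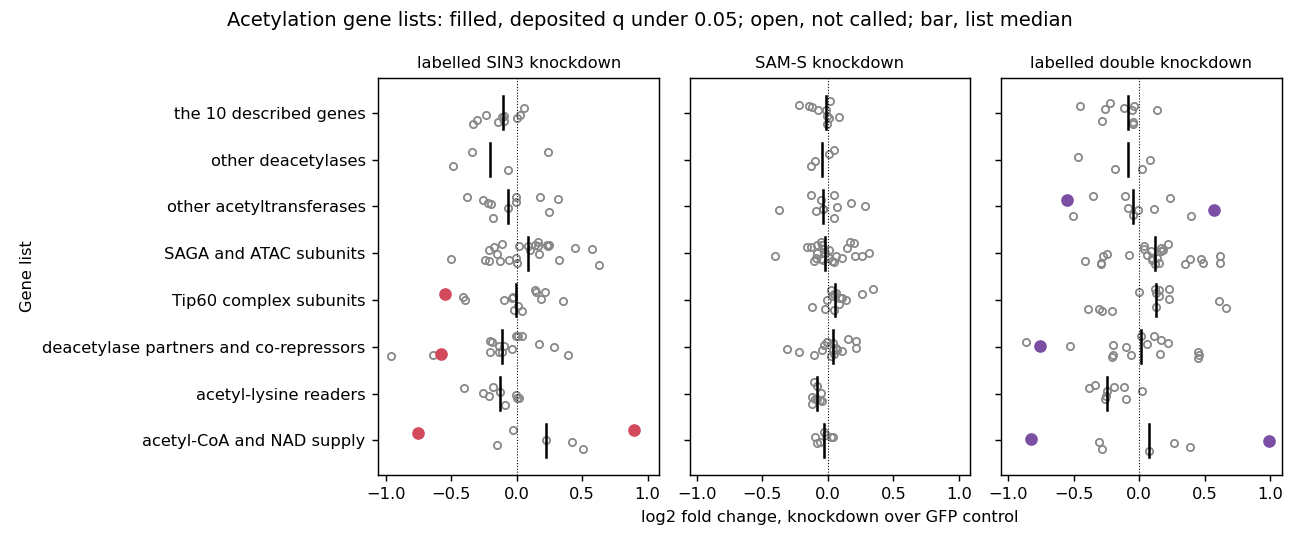
Log2 fold change of every tested gene of the acetylation lists in the 3 comparisons; filled points have a deposited q under 0.05, open points were not called, and bars are list medians. The row of the 10 described genes holds no filled point, and no list has one after SAM-S knockdown. Of all tested rows, 7.68%, 0.163% and 9.62% had such a q for SIN3, SAM-S and double.

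The rows most like Sir2, the gene with the lowest deposited p, were sought among 5172 rows with a geometric mean FPKM over the groups within 4-fold of its own. The 3 nearest by Euclidean distance over the 3 log2 fold changes were CG13890, dnc and CG12121, at distances of 0.036, 0.039 and 0.042. CG13890 stood at 42.1 FPKM in the control and 34.6, 37.0 and 30.8 FPKM for SIN3, SAM-S and double. The cAMP phosphodiesterase gene dnc stood at 24.5 FPKM in the control and 19.5, 21.4 and 18.0 FPKM. CG12121 stood at 105 FPKM in the control and 83.4, 92.2 and 78.6 FPKM. The likeness rests on 3 values per row that share 1 control, and is a description only.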

How the data were processed

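RNA-seq libraries of 12 samples in 4 groups of 3 were analysed from the authors' 3 tables, each of 1 knockdown label against GFP. The submitters' processing notes name bcl2fastq, Cuffdiff and build dm3, without versions. The aligner, the annotation and the strand setting are not given in any source used here. The labels say that replicates were combined: the deposited FPKM are 1 value per gene row and group. The deposited p-value and q-value come from the authors' comparison, and the deposited test statistic beside them is a score. It cannot be told from them whether they measure the spread between samples. Depth is unknown, since at most 9 of 2991 low rows shared 1 ratio of FPKM to 0.001, so no whole-read steps were found.

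Log2 fold changes were computed from FPKM without a pseudocount, because the deposited log2 column holds cells that are not numbers. The approximate standard error is the absolute log2 fold change over the absolute statistic times 1.735 (SIN3), 1.739 (SAM-S) or 1.735 (double), each table's median ratio of the normal quantile of p to the statistic. Differences between tables used the root of both squared errors, a normal p and Benjamini-Hochberg adjustment over all rows tested in both. That root counts the shared control in both tables and is therefore too large. Starts were raised by 1, since end minus deposited start equals the annotated gene length in 4161 of 10884 rows and is 1 short in 71. Python 3.11.15, pandas 2.3.3, numpy 2.4.6, SciPy 1.17.1 and matplotlib 3.10.9 were used.

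The genes and lists were chosen with earlier results of these data known, so no list was tested. The naming rule took the 10 genes, Sin3A and Sam-S, up to 2 called genes per list, table and direction, and the 3 rows nearest to the gene with the lowest p. Rpd3, mof, Smr and the locus neighbours were named, and rows that share a locus compared with the rest, after their values were seen. The hemocyte list's called genes are given as a count. Alternatives were a q of 0.01, other adjustments and row filters, 1 added to each FPKM, centring, and other standard errors. No genome sequence, promoter or protein table was used here, so no sequence is printed.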

Additional observations from a re-analysis of the deposited data

How the results depend on the processing

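The count of called genes stayed at 0 of 10 in every table with a Benjamini-Hochberg adjustment of the deposited p and with rows of at least 1 FPKM. It also did so with rows of a single symbol and with a normal p from the statistic. A q of 0.01 gave 0 too, as it had to, since no gene passed 0.05. The lowest adjusted p of the genes ran from 0.283 to 0.307 over these settings for SIN3, from 0.9998 to 1 for SAM-S and from 0.179 to 0.188 for the double table. The median log2 fold change ran from -0.104 to -0.090 over the settings for SIN3 and from -0.013 to 0.0056 for SAM-S. For the double table it ran from -0.086 to -0.054. With only the 6 genes that have a locus of their own, an alternative added after seeing the data, it was -0.10, -0.01 and -0.05. Centring on the median of tested rows turned 3 values of the SAM-S table to the other side of 0: Hdac3 to 0.0079, Sirt2 to 0.0033 and Tip60 to 0.013. It also moved the SAM-S median to 0.0056. No gene was called different between knockdowns with a standard error from the deposited p, after centring, or with the shared control counted once. In that last setting the lowest adjusted p was 0.645. No replicate could be left out and no paired analysis was possible because the tables hold 1 pooled value per group.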
